A study of Mus musculus with 2 samples.

Results

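Immediate early genes are switched on within minutes of a stimulus, without new protein synthesis, and stress response genes are switched on by heat, damage or misfolded protein. The 37 genes described here were picked by symbol from these classes and found among the 24015 symbols of the count files. Their RNA was measured at postnatal day 6 in mouse J-RGCs, a retinal ganglion cell type marked by the adhesion protein gene Jam2. The cells were labelled with green fluorescent protein by a transgene specific to J-RGCs, then taken with magnetic beads and a flow cytometer for single-end RNA sequencing. There was 1 group of 2 libraries, A and B, from different litters and with 5 to 6 animals pooled in each. The sources used here do not give the strain, the name of the transgene or the time from dissection to lysis, and no unsorted or stimulated group was analysed here to set the levels against.

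In neurons, calcium entry and growth factor signalling act through the kinase cascades that end on CREB, SRF and MEF2, and these factors turn on the Fos, Egr and Nr4a genes, which in turn regulate later genes. The same early genes are known to respond to enzymatic dissociation and sorting of tissue, so their RNA in sorted cells can reflect the tissue, the handling or both. Heat shock genes follow another route, in which the factor HSF1 is released from chaperones when unfolded protein builds up. The genes were therefore divided by the setting each is best known for: 15 activity-linked genes, 14 dissociation-linked genes and 8 heat shock genes. The division is not clean, because Fos, Junb, Egr1, Btg2 and Dusp1 also follow neuronal activity, and Nr4a1, Egr2 and Fosb also follow dissociation.

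The gene counts summed to 7916204 in library A and to 13744313 in library B. Values are CPM, the count as a share of that sum scaled to 1000000, and a gene counts as detected where both libraries reach a CPM of 1. A count of 0 allows a level of up to 0.379 CPM in A and up to 0.218 CPM in B, taken as 3 counts. The labels name no molecular identifiers, so this limit and the counting intervals cover counting error only. All 10 ganglion cell markers were detected, and summed to 11839 CPM in A against 16644 CPM in B, and Jam2 stood at 2344 and 1203 CPM. Of the markers of other cells, 10 of 12 for microglia (582 and 487 CPM summed, with Aif1 at 0.379 and 3.86 CPM), 6 of 7 for Müller glia (537 and 477 CPM, Rlbp1 at 0 and 1.60 CPM), 5 of 8 for endothelial and mural cells (412 and 120.05 CPM, Cldn5 at 0 and 0.0728 CPM), 4 of 7 for amacrine cells (126 and 108 CPM, Chat at 0 and 0.0728 CPM) and 5 of 7 for rods (41.7 and 35.6 CPM, Gnat1 at 0 and 0.291 CPM) were detected. Microglia are known for a strong early gene response to dissociation, and the part of such cells in the levels below was not tested. In pooled RNA, fewer cells of a type and less RNA per cell cannot be told apart.

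Most of the 15 genes classed here as activity-linked were low in these cells, and Hsp90aa1, Hsp90ab1 and Hspa8 were high. Of the 37 genes 25 were detected, beside 46.8% of all symbols. By class these were 5 of 15 activity-linked genes, 12 of 14 dissociation-linked genes and 8 of 8 heat shock genes. The activity-linked count was 9 in library B alone and 7 in library A alone. At a CPM of 5 in both libraries the counts were 2, 6 and 6. A CPM of 10 in each library was reached by 11 genes, beside 27.8% of all symbols, and a CPM of 100 by 3, all of them heat shock genes, beside 6.53%. Since CPM favours long transcripts, levels of different genes were compared as CPM per kilobase of exon. On that scale the median gene stood at 0.323 in A and 1.08 in B among activity-linked genes, 1.98 and 3.54 among dissociation-linked genes, and 19.2 and 23.1 among heat shock genes. Over the 16787 symbols with a count and a known exon length the median was 1.505 in A and 2.27 in B. No test was made between the classes, and their counts depend on the division used. Fos, Junb, Egr1, Btg2 and Dusp1, which also follow neuronal activity, are classed as dissociation-linked and were all detected. Of the activity-linked genes that also follow dissociation, Nr4a1 and Fosb were detected and Egr2 was not. The members were chosen with earlier results of these data known.

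**Figure D1:**
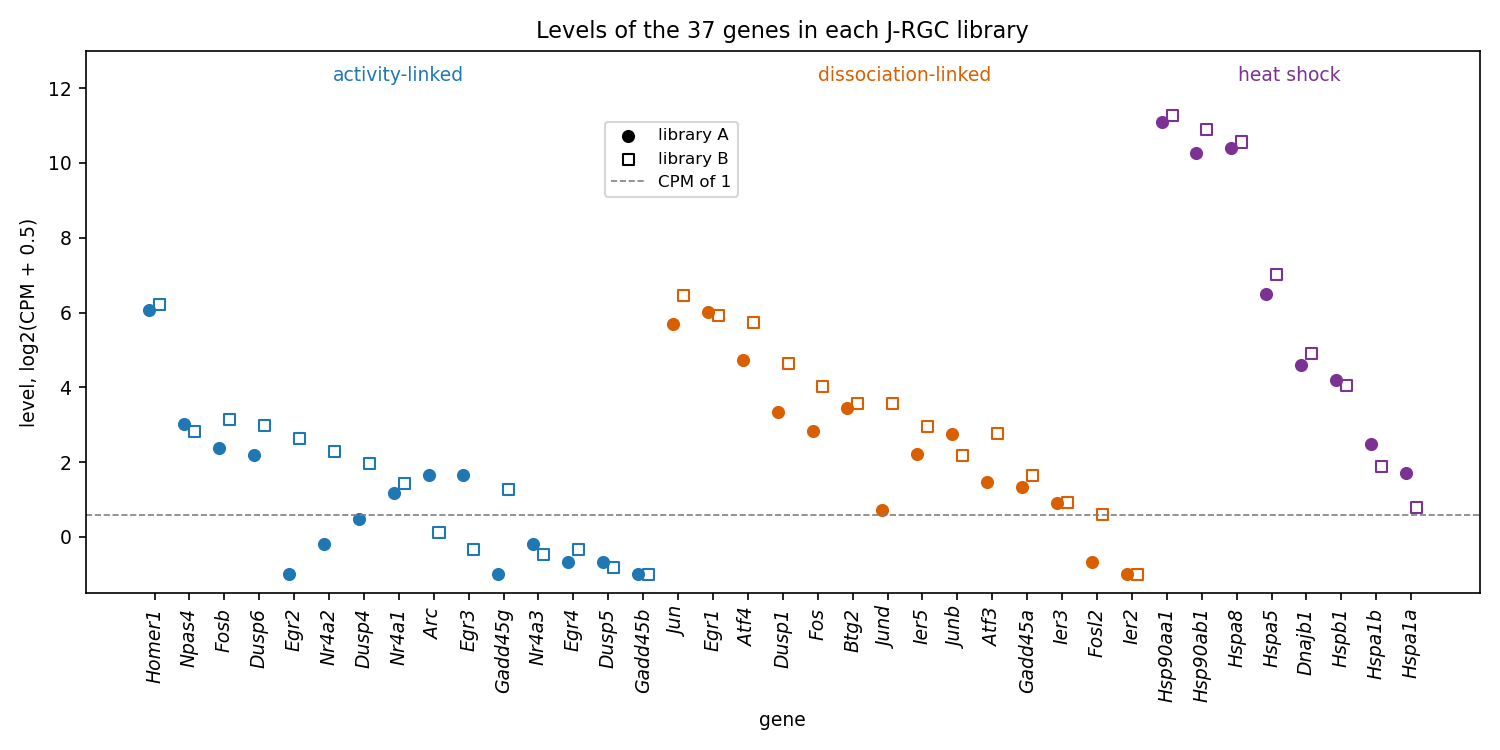
Level of each gene in library A (filled circles) and library B (open squares) as log2(CPM + 0.5), by class and in order of mean CPM within the class. On this scale, which is not corrected for length, Homer1 at 66.2 and 73.6 CPM stands above the other activity-linked genes, and Hsp90aa1, Hsp90ab1 and Hspa8 lie between 1231 and 2477 CPM.

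Among the activity-linked genes, Homer1 was the highest per kilobase, and 10 of the 15 genes were not detected in both libraries. Homer1, a scaffold of the postsynaptic density, stood at 66.2 CPM in A and 73.6 CPM in B. Its short form is the activity-induced product and its long forms are constitutive, and counts per gene cannot tell these apart. Per kilobase it stood at 5.53 in A and 6.14 in B, rank 5006 of 16787. Npas4, a transcription factor that is induced by calcium entry in neurons and by few other stimuli, had 60 counts in A and 91 in B, or 7.58 and 6.62 CPM. The libraries lay close together, with A over B at 1.14 and a 95% counting interval of 0.812 to 1.60. Arc, a cytoskeleton-associated protein that trims synaptic AMPA receptors, stood at 2.65 and 0.582 CPM, from 21 and 8 counts, and missed detection in B.

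Fosb, the partner of Jun proteins that builds up under repeated activity, stood at 4.67 CPM in A and 8.29 CPM in B. The Nr4a family of orphan nuclear receptors summed to 0.661 CPM per kilobase in A and 1.73 in B. Nr4a1 stood at 1.77 and 2.18 CPM, Nr4a2 at 0.379 and 4.37 CPM and Nr4a3 at 0.379 and 0.218 CPM. Only Nr4a1 of these was detected in both libraries. The leading gene by CPM per kilobase differed between the libraries, with Nr4a1 holding 76.3% of the family in A and Nr4a2 holding 62.0% in B.

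Of the Egr zinc finger factors, Egr1 carried nearly all of the family's signal. Egr1 belongs to the dissociation-linked class here, and stood at 64.3 CPM in A and 60.4 CPM in B. Egr2, which is known to control myelination in Schwann cells and is also an early gene, had no count in A and 79 in B (5.75 CPM). Egr3 stood at 2.65 and 0.291 CPM, from 21 and 4 counts, and Egr4 at 0.126 and 0.291 CPM. Per kilobase Egr1 took 95.6% of the family in A and 87.7% in B, and the next share was that of Egr3 in A, at 4.01%, and of Egr2 in B, at 11.01%. Egr1 was close between the libraries, with A over B at 1.06 (95% counting interval 0.952 to 1.19), while Egr2 had counts only in B and Egr3 had most of its counts in A.

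The phosphatases that switch off MAP kinases differed widely in level. Dusp6, which acts in the cytoplasm, stood at 4.04 and 7.35 CPM, Dusp4 at 0.884 and 3.42 CPM, and Dusp5 at 0.126 and 0.0728 CPM, or 1 count in each library. Dusp1, the family member induced most readily by stress and growth factors, stood at 9.73 CPM in A and 24.5 CPM in B. Dusp1 over Dusp6 was 2.84-fold per kilobase, with a 95% interval of 0.930 to 8.69 that held 1. With the longest transcript in place of the summed exon length the interval excluded 1 (log2 ratio 1.86, 0.25 to 3.47).

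The Gadd45 genes, which bind stress kinases and take part in growth arrest and DNA demethylation, were low. Gadd45a stood at 2.02 and 2.62 CPM and was detected. Gadd45g had no count in A and 26 counts in B (1.89 CPM). Gadd45b had no count in either library, as had the early gene Ier2, beside 29.3% of all symbols. Neither Ier2 nor Gadd45b shares exon bases with another gene in GENCODE M21, and neither shares any run of 50 bases with another transcript there. Their longest transcripts hold 60.9% and 56.9% G and C, beside a median of 49.4% over all genes with a count. Whether base composition or the authors' gene models bear on these zeros was not tested.

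**Figure D2:**
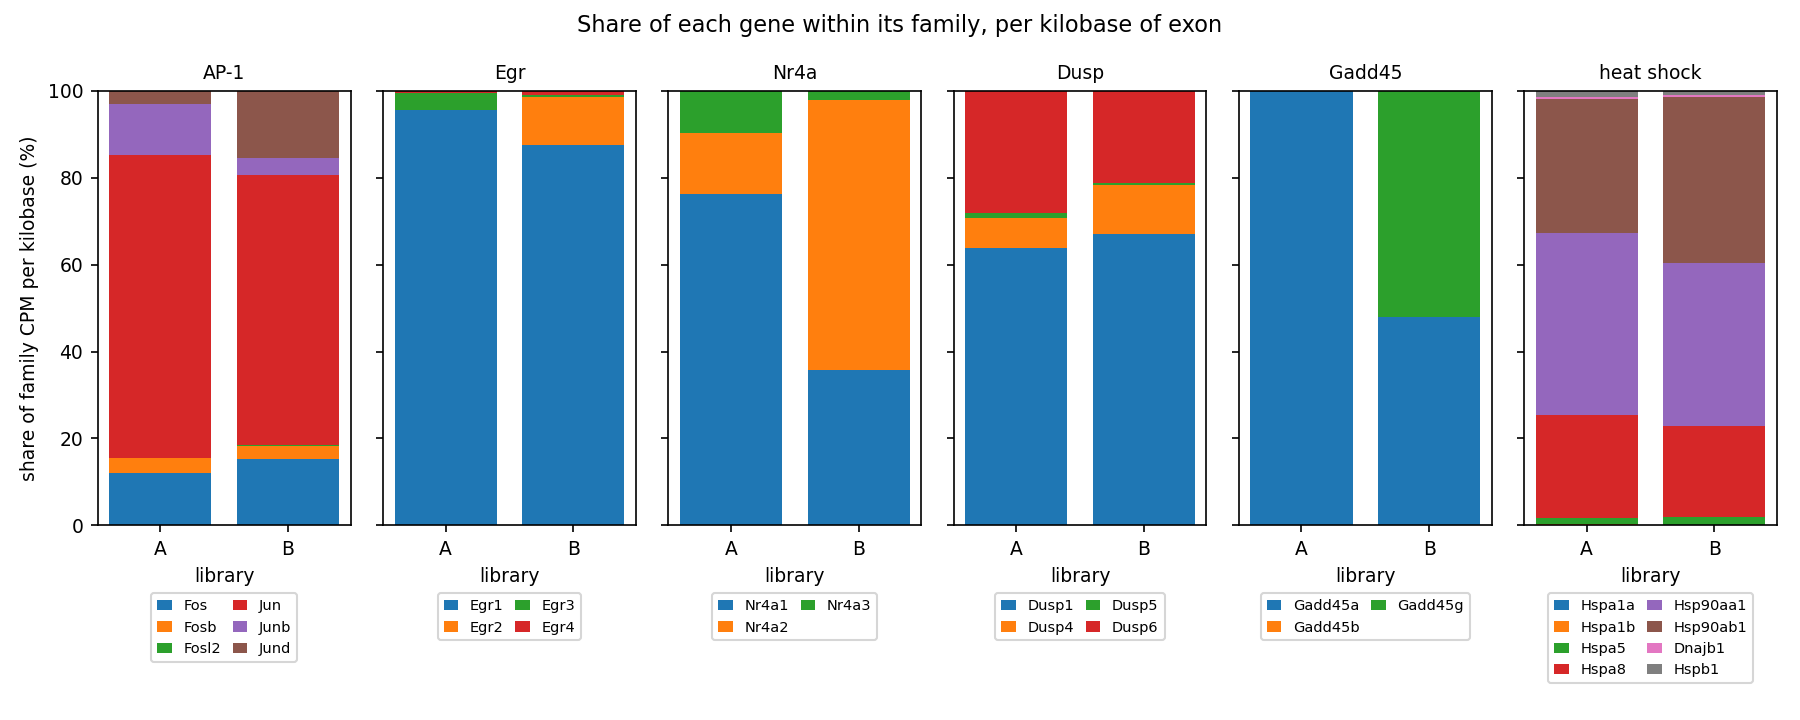
Share of each gene in its family's summed CPM per kilobase (vertical axis, %) in library A (left bar) and library B (right bar). Jun holds 69.9% and 62.2% of the AP-1 genes and Egr1 95.6% and 87.7% of the Egr genes, while the leading Nr4a gene differs between the libraries.

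Among the dissociation-linked genes Jun, Atf4 and Egr1 were highest per kilobase, and Fos was lower. Jun, the AP-1 subunit that is also raised by axon damage through JNK, stood at 51.3 CPM in A and 87.2 CPM in B, rank 1612 of 16787 per kilobase. Fos, its usual partner, stood at 6.57 and 15.7 CPM. Per kilobase the ratio of Jun to Fos was 5.76 in A and 4.09 in B, and 4.58 over both (95% interval 1.70 to 12.4). Jun was thus the higher gene in each library, and the interval excluded 1. Junb, an AP-1 subunit that can act against Jun, stood at 6.19 and 4.002 CPM, and Jun over Junb was 9.81-fold per kilobase (interval 3.51 to 27.4). Jund, a subunit that many resting cells express, stood at 1.14 CPM in A and 11.3 CPM in B, with 9 and 155 counts. Jund over Jun was 0.171-fold (interval 0.0614 to 0.478), but 0.247-fold in B alone, where the log2 interval of -4.09 to 0.058, which assumes the same spread for the lone library, held 0. In GENCODE M21 52.6% of the Jund exon bases are covered by the antisense gene Gm11175, so reads of the genes could be confused if strand was not used. Genes on the opposite strand also cover 22.1% of the exon bases of Dusp5, 19.1% of Gadd45a, 19.0% of Hspa1a, 7.52% of Junb and 7.28% of Jun.

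Fos over Fosb was 4.56-fold per kilobase (interval 1.43 to 14.6). This call ended with the longest transcript as length (log2 ratio 1.62, -0.051 to 3.30), without length correction (0.78, -0.89 to 2.46) and without either library. Fosl2, a slower Fos relative, had 1 count in A and 14 in B. Together the AP-1 genes summed to 23.0 CPM per kilobase in A and 44.0 in B. Of this Jun held 69.9% and 62.2%, Fos 12.1% and 15.2%, Junb 11.7% and 3.96%, and Jund 2.96% and 15.4%.

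The Fos, Dusp1, Npas4 and Egr2 promoters are shown because they hold the known motifs of the factors that switch early genes on. The sequences are from RefSeq (GRCm38.p6), read 5′ to 3′ and ending at the base before the transcript start. Capitals mark TGACG on either strand (the core of the CREB site) in Fos and Npas4, TATAAA in Fos, the full palindrome TGACGTCA in Dusp1, and a CArG box, the site of SRF, in Egr2. The windows are chr12:85473740-85473889 on the plus strand, chr17:26508473-26508622 on the minus strand, chr19:4989972-4990171 on the minus strand, and chr10:67537719-67537868 on the plus strand, the last of these for 1 of the 5 annotated starts of Egr2.
Fos: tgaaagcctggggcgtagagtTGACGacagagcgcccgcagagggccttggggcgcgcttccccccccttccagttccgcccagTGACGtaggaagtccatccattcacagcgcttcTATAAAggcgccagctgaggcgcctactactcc
Dusp1: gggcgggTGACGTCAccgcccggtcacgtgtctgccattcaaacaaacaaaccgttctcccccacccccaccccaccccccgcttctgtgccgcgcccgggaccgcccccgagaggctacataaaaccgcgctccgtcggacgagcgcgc
Npas4: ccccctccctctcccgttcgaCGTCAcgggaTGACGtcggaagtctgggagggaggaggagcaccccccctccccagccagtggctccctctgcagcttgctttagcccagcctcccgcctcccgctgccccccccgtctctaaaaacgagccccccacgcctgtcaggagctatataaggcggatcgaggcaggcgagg
Egr2: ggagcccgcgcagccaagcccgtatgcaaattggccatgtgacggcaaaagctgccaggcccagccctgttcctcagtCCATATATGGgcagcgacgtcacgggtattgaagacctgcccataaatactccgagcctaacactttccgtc

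In windows of 300 bases, 250 before and 50 after the start, 29 of the 37 genes had an entry. Arc, Dusp4, Egr1, Egr3, Ier2, Hsp90aa1, Hsp90ab1 and Hspa8 had none. No motif was searched in these 8 genes, so its absence from them cannot be read here. TGACG on either strand was found in 18 of these 29 genes, which were 9 of 12 activity-linked, 6 of 12 dissociation-linked and 3 of 5 heat shock genes, beside 23.0% of the 27025 genes and 20.8% of the 32851 windows in the table. The palindrome TGACGTCA, each copy of which also holds TGACG, was found in Dusp1 and Btg2, beside 2.03% of genes and 1.79% of windows. TATAAA on either strand was found in Fos, Junb, Nr4a2, Gadd45b and Gadd45g, beside 15.7% of genes and 13.6% of windows. The match in Nr4a2 lies on the opposite strand, and that in Junb lies after the start. The AP-1 motif TGANTCA was found in Hspa5 alone of the 29, beside 8.97% of genes and 7.81% of windows. CArG boxes were found in Egr2 and Dusp5, beside 1.81% of genes and 1.63% of windows. A gene with several starts has several windows and so more chances of a match. These matches describe the letters only. Of the genes with a CArG box, Dusp5 had 1 count in each library, while Egr2 had 0 in A and 79 in B. Their levels thus differed in B only.

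Atf4, the effector of the integrated stress response, was among the higher dissociation-linked genes, with 26.0 CPM in A and 52.9 CPM in B. It is controlled mainly at translation, so its RNA level is not a readout of its activity. Atf3, which stress and axon damage induce, stood at 2.27 and 6.33 CPM. Atf4 over Atf3 was 8.38-fold per kilobase (95% interval 2.98 to 23.5), at 10.5 in A and 7.63 in B. Egr1 stood at 14.3 and 13.5 CPM per kilobase, Atf4 at 11.04 and 22.4 and Jun at 16.1 and 27.4. On that scale they were the 3 highest of the activity-linked and dissociation-linked genes. Jun was first in both libraries, and Egr1 was above Atf4 in A only.

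The remaining dissociation-linked genes did not reach the level of Jun, Atf4 and Egr1 per kilobase. Btg2, an antiproliferative gene of the p53 pathway, stood at 10.4 and 11.4 CPM, or 3.78 and 4.14 CPM per kilobase. Ier5, a regulator of HSF1, stood at 4.17 and 7.20 CPM, and Ier3, a survival gene, at 1.39 and 1.38 CPM.

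**Figure D3:**
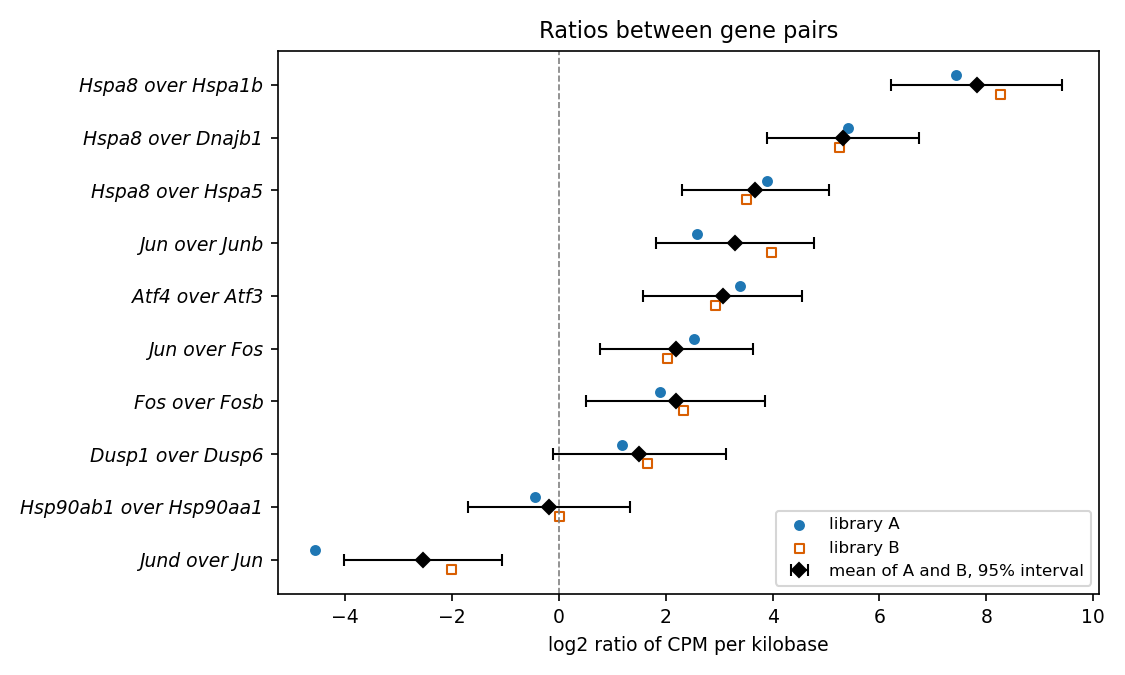
Ratio of gene pairs as log2 of CPM per kilobase (horizontal axis), with the mean of both libraries and its 95% interval (diamonds and bars) beside library A (circles) and library B (open squares). The interval excludes a ratio of 1 in 8 of the 10 pairs shown, and Dusp1 over Dusp6 and Hsp90ab1 over Hsp90aa1 are the other pairs.

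The heat shock genes ranged from Hsp90aa1, Hsp90ab1 and Hspa8 among the highest genes of the table to Hspa1a and Hspa1b below the level of Dnajb1 and Hspb1. Hsp90aa1 and Hsp90ab1, the cytosolic HSP90 chaperones that hold kinases and receptors in a ready state, stood at 2200.2 and 2477 CPM and at 1231 and 1913 CPM. Hspa8, the constitutive HSP70 that also uncoats clathrin vesicles, stood at 1345 CPM in A and 1509 CPM in B. Per kilobase these ranked 21, 25 and 44 of 16787 and together held 96.4% of the class in A and 96.6% in B. Hsp90ab1 over Hsp90aa1 was 0.881-fold per kilobase, with an interval of 0.308 to 2.52 that held 1. The class as a whole took 0.491% of A's gene counts and 0.608% of B's.

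The heat-inducible HSP70 genes were the lowest of the class per kilobase. Hspa1a stood at 2.78 and 1.24 CPM, from 22 and 17 counts, and Hspa1b at 5.05 and 3.20 CPM, from 40 and 44 counts, ranks 11349 and 9352 of 16787 per kilobase. Hspa8 exceeded Hspa1b 225-fold per kilobase (95% interval 74.5 to 682), at 173 in A and 307 in B. Reads that aligned to several places are listed apart from the gene counts, so genes with near-identical copies can lose reads and their levels are uncertain. Of the runs of 50 bases in the longest transcript, 66.3% in Hspa1a and 62.3% in Hspa1b also occur in another gene, mostly in each other. The same holds for 52.7% of the runs in Hspa8, 58.5% in Hsp90aa1 and 51.6% in Hspb1, and for 4.49% in Hsp90ab1. The ratio of Hspa8 to Hspa1b is therefore one between genes that could both lose reads. In Hspa5 the shared runs are 0% and in Dnajb1 0.441%. Loss of reads could thus be unequal between Hsp90ab1 and Hsp90aa1, between Hspa8 and Hspa5 or Dnajb1, and between Hspb1 and Dnajb1. Its effect on these comparisons was not tested.

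The promoters of the inducible pair are nearly the same, with 247 of the 250 bases before the start identical. They are shown with Hspa5, which answers to the endoplasmic reticulum instead. Capitals mark GAANNTTC, a pair of inverted heat shock units, in Hspa1a and Hspa1b, and the endoplasmic reticulum stress element, CCAAT followed at a fixed distance by CCACG, in Hspa5. The windows are chr17:34972157-34972306 on the minus strand, chr17:34959239-34959388 on the minus strand, and chr2:34771940-34772089 on the plus strand, in the same build and orientation as above.
Hspa1a: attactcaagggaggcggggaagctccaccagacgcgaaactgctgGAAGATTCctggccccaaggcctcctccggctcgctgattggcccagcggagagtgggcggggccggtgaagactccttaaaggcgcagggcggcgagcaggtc
Hspa1b: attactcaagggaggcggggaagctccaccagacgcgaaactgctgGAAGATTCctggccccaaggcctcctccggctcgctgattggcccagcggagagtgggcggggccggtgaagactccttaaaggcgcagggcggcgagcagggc
Hspa5: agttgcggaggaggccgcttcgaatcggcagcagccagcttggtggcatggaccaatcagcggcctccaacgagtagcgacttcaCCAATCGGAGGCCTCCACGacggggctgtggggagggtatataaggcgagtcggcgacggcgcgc

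A pair of heat shock units, GAANNTTC or TTCNNGAA, was found in 3 of the 5 heat shock genes with a window, Hspa1a, Hspa1b and Hspb1, and in 2 of 12 activity-linked and 2 of 12 dissociation-linked genes, beside 17.0% of all genes and 15.1% of windows. The stricter run of 3 such units in alternating orientation was found in none of the 29 genes and in 0.603% of windows. The stress element was found in Hspa5 alone of the 29, beside 0.137% of genes and 0.119% of windows.

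Hspa5 (BiP), the chaperone of the endoplasmic reticulum, stood at 89.4 CPM in A and 130.2 CPM in B, and Hspa8 exceeded it 12.8-fold per kilobase (interval 4.93 to 33.1). Dnajb1, the heat-inducible HSP40 that feeds clients to HSP70, stood at 23.6 and 29.4 CPM, and Hspa8 exceeded it 40.1-fold (interval 14.97 to 107). Hspb1 (HSP25 in the mouse), a small chaperone that binds actin and intermediate filaments and is raised in damaged neurons, stood at 17.7 and 15.9 CPM. Per kilobase Hspb1 reached 17.2 in A and 15.5 in B, above Dnajb1 at 7.37 and 9.17. All 8 genes of the class lay within 2-fold between the libraries on the log2(CPM + 0.5) scale, beside 66.7% of all detected genes, although without the added 0.5 Hspa1a lay outside it.

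Of the 23 gene pairs set side by side per kilobase, 10 had both genes above the expression filter of the dispersion fit, and in 8 of these the 95% interval excluded 1. The intervals combine counting error with edgeR's trended dispersion between the libraries and are not adjusted over the pairs. They use a normal approximation and treat the genes of a pair as independent, although both were read in the same libraries. Errors particular to a gene, such as those of exon length, read mapping or base composition, are not covered. The other 13 pairs held a gene too low for the fit, namely Egr2, Egr3, Egr4, Nr4a2, Nr4a3, Arc, Dusp4, Dusp5, Gadd45b, Gadd45g, Fosl2 and Ier2.

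The libraries differed at several of the early genes, in both directions. Each gene was tested between A and B with a two-sided exact binomial test and Benjamini-Hochberg adjustment over the 14107 genes with 10 or more counts, and called at an adjusted p under 0.05 and a ratio of at least 2-fold. The test compares these libraries, not conditions. Of 32 genes tested 3 were higher in A, beside 10.9% of all genes tested, and 10 were higher in B, beside 33.6%. The 13 genes called in either direction stand beside 44.5% of all genes. The remaining 5 genes had fewer than 10 counts in all.

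The genes higher in A were Arc, Egr3 and Hspa1a. Egr3 had 21 counts in A and 4 in B, a ratio A over B of 9.12 (95% counting interval 3.08 to 36.5, adjusted p = 6.15e-06 by the exact binomial test). Arc had a ratio of 4.56 (1.94 to 11.9) and Hspa1a of 2.25 (1.14 to 4.51). The genes higher in B were Egr2, Nr4a2, Dusp4, Gadd45g, Fos, Fosl2, Jund, Dusp1, Atf3 and Atf4. Egr2, without a count in A, was at least 15.2-fold lower in A than in B, and Gadd45g at least 4.99-fold lower, taking 3 counts in A and the observed level in B. With the counting error of both libraries, the 95% intervals allow a ratio A over B of up to 0.0830 for Egr2 and 0.265 for Gadd45g. Dusp4 had a ratio A over B of 0.259 (0.0986 to 0.576) and Fosl2 of 0.124 (0.00293 to 0.815). Jund had a ratio of 0.101 (0.0452 to 0.196) and Nr4a2 of 0.0868 (0.0174 to 0.266). Fos had a ratio of 0.418 (0.303 to 0.568), Dusp1 of 0.397 (0.306 to 0.510), Atf3 of 0.359 (0.203 to 0.602) and Atf4 of 0.492 (0.419 to 0.575). Of the 11 activity-linked genes tested, Arc and Egr3 were higher in A, and Egr2, Nr4a2, Dusp4 and Gadd45g were higher in B. The other 5, Npas4, Homer1, Nr4a1, Fosb and Dusp6, passed the threshold in neither direction. Calls in both directions were also common over all genes, so nothing particular to these genes is read from them.

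Ratios leaned towards B over the whole table, with a median log2 ratio A over B of (CPM + 0.5) of -0.46 for the 16969 symbols with a count. The median was -0.24 for the 15 activity-linked genes, -0.74 for the 14 dissociation-linked genes and -0.17 for the 8 heat shock genes. TMM scaling moved every log2 ratio by 0.38 towards A and DESeq2's size factors by 0.48. Under either scaling the calls for Fos, Fosl2, Dusp1 and Atf4 ended, and Junb and Hspa1b passed as higher in A, which gave 5 genes higher in A and 6 in B. Over all genes TMM scaling called 15.4% higher in A and 24.0% higher in B, 39.4% together, and the size factors 16.9% and 22.0%, 38.9% together. Among the endothelial and mural markers (412 and 120.05 CPM summed), the mural genes Rgs5, Pdgfrb and Kcnj8 were higher in A, with Rgs5 at 342 and 82.4 CPM. The endothelial genes Pecam1, Tek and Cdh5 were higher in B, with Cdh5 at 0.884 and 8.66 CPM. The endothelial gene Kdr, at 4.67 and 4.73 CPM, was not called, and Cldn5 was too low to test. Microglia markers summed to 582 and 487 CPM, and the part of these cells in the early gene differences was not tested. Across the 32 genes, which share these libraries, the G and C content of the transcript and the log2 ratio had a Pearson's r of -0.0055 and a Spearman's rho of 0.14.

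**Figure D4:**
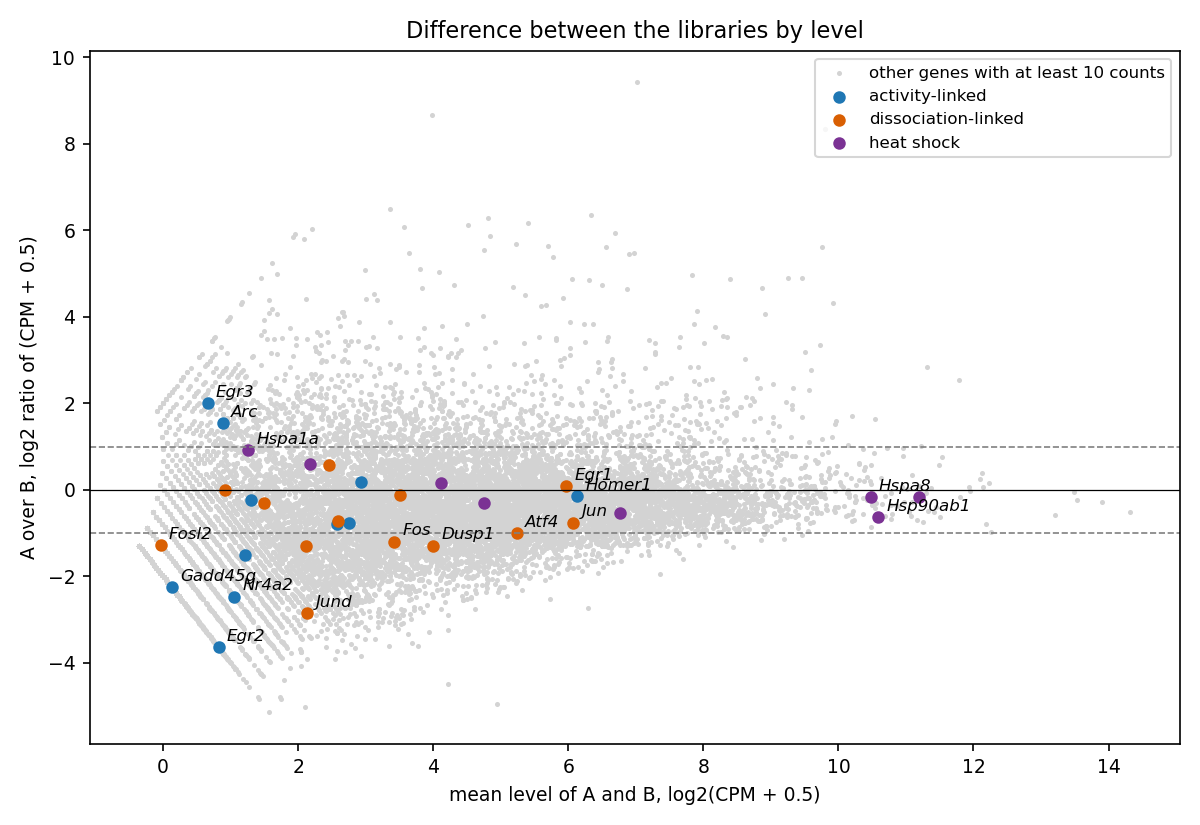
Log2 ratio A over B of CPM + 0.5 (vertical axis) against the mean log2 level of A and B (horizontal axis), for all genes with at least 10 counts (grey) and the 32 tested genes by class (coloured). Dashed lines mark 2-fold. The heat shock genes at high level lie near 0, while Egr3 and Arc at low level lie above the upper line and Egr2, Nr4a2 and Jund below the lower line.

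Of the 13 genes whose mean CPM reached 10, 10 lay within 2-fold on the log2(CPM + 0.5) scale, beside 70.9% of all such genes, and Fos, Dusp1 and Atf4 were the others. All 7 tested genes that were not detected in both libraries were called different. A gene with at least 10 counts in all that misses a CPM of 1 in a library tends to be uneven by that choice. The share of such genes called over the whole table was not counted, so nothing particular to the 7 genes is read from this. Detection in both libraries itself leaves out low genes that differ.

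Other genes of the same pathways were read from lists of genes that were not part of the 37, and the highest in CPM of each list, not corrected for length, are named. Their calls between the libraries stand beside 10.9% of all tested genes higher in A and 33.6% higher in B. Among 22 other activity-linked genes 16 were detected and the median stood at 2.34 CPM per kilobase in A and 2.93 in B. The highest in CPM were the granin Scg2 (384 and 340.1 CPM), neuritin Nrn1 (127 and 146 CPM), the neurotrophin Bdnf (88.9 and 17.97 CPM) and the G protein regulator Rgs2 (42.1 and 64.7 CPM). By the binomial test 4 of the 20 tested were higher in A, Bdnf among them (ratio 4.95), and 5 in B, against 5 and 5 under TMM scaling and 5 and 4 under DESeq2's size factors. Of 30 other dissociation-linked genes 23 were detected, led by the RNA helicase gene Ddx5 (474 and 562 CPM), the bromodomain gene Brd2 (121 and 233 CPM), the autophagy receptor gene Sqstm1 (205 and 44.2 CPM) and the amino acid transporter gene Slc38a2 (87.4 and 143 CPM). Of 29 tested, 7 were higher in A and 9 in B, against 8 and 8 under TMM scaling and 8 and 6 under the size factors.

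Other chaperone genes were nearly all present. Of 21 such genes 19 were detected, with a median of 14.4 CPM per kilobase in A and 14.3 in B. The HSP40 gene Dnaja1 stood at 1982 and 1099 CPM, the HSP70 relatives Hspa12a and Hspa4 at 461 and 501 CPM and at 420.3 and 532 CPM, and the HSP110 gene Hsph1 at 142 and 172 CPM. Of the 21 tested, 1 was higher in A and 5 in B, but 2 and 2 under either other scaling. Of 25 genes of the endoplasmic reticulum and integrated stress responses 23 were detected, led by the lectin chaperones Canx (716 and 436 CPM) and Calr (515 and 182 CPM), the HSP90 of the endoplasmic reticulum Hsp90b1 (289.9 and 500.1 CPM) and the disulfide isomerase Pdia3 (301 and 371 CPM). Here 5 of 23 tested genes were higher in A, Calr among them, and 8 in B, against 6 and 7 under either other scaling.

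All 20 kinases and factors upstream of the early genes were detected. The JNK genes Mapk10 (439 and 714 CPM) and Mapk9 (414 and 403 CPM) were among the highest in CPM, with the factor Mef2a (472 and 287 CPM). Of 15 genes tied to axon injury and regrowth 12 were detected, led by the semaphorin Sema6a (1108 and 1340.2 CPM), the transcription factor gene Klf7 (444 and 436 CPM), the growth cone gene Gap43 (298 and 555 CPM) and the stathmin Stmn4 (113 and 178 CPM). Of the upstream genes 1 of 20 was higher in A and 7 in B, against 2 and 5 under TMM scaling and 2 and 4 under the size factors. Of the axon injury genes 2 of 13 tested were higher in A and 2 in B, but 2 and 0 under either other scaling.

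**Figure D5:**
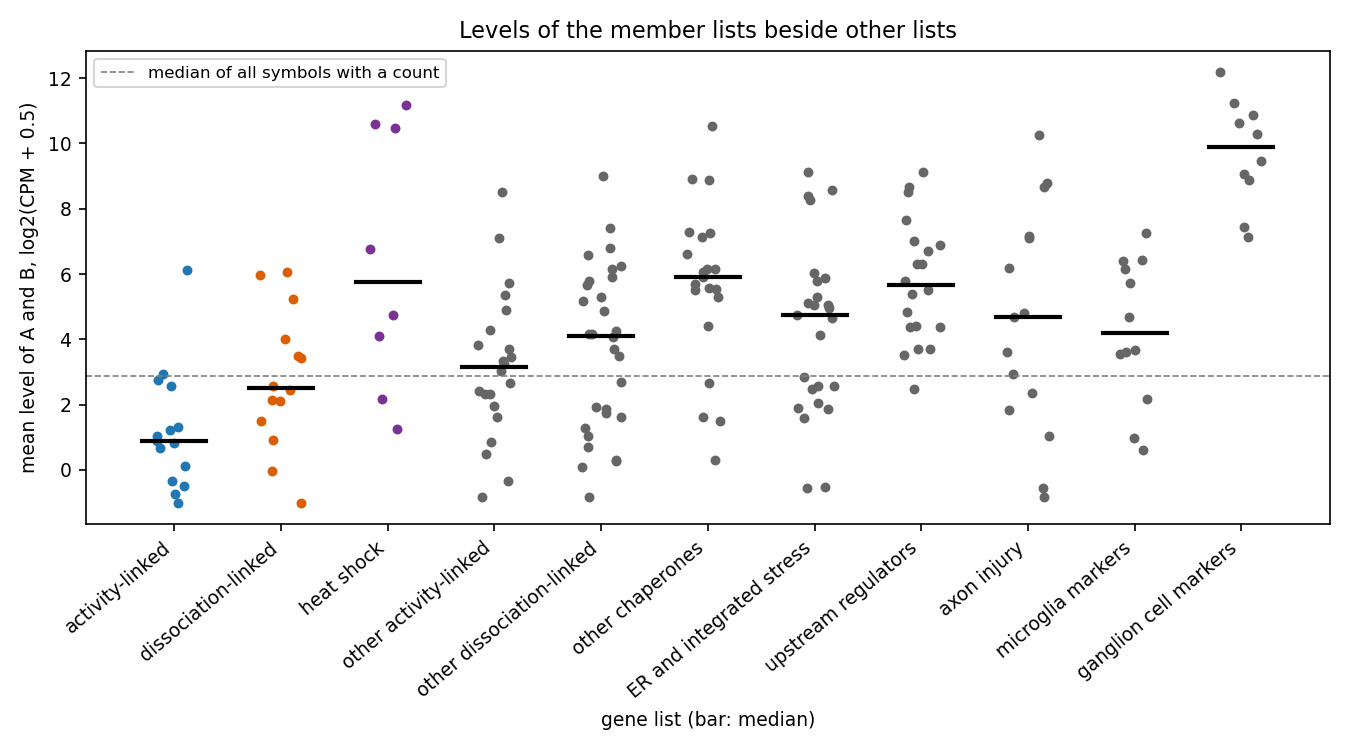
Mean level of A and B as log2(CPM + 0.5) (vertical axis) for each gene of the 3 classes, of the other pathway lists and of microglia and ganglion cell markers; bars mark list medians and the dashed line the median of all symbols with a count, 2.89. The activity-linked median lies lowest at 0.89, the dissociation-linked median at 2.52 and the heat shock median at 5.75.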

How the data were processed

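RNA-seq was measured in 2 J-RGC libraries of 1 group, replicates A and B from the labels. The authors deposited raw whole-number counts per gene symbol. Per the submitters' processing notes, the tools were Trimmomatic (0.32), TopHat2 (2.0.10) and HTSeq (0.6.1), and the build was mm9. The sources used here give no annotation or strand setting, so antisense and overlapping genes cannot be told apart. Reads without a gene were 54.3% in A and 47.9% in B of those listed, reads aligned to several places 18.5% and 20.8%, and ambiguous reads 0.313% and 0.357%. These lines were kept out of all totals.

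Counts were scaled to 1000000 per gene total, and log2 values used a pseudocount of 0.5. With 1 group there was no contrast for a quasi-likelihood test. Dispersion came from an intercept-only edgeR 4.0.16 fit in R 4.3.3 over 11272 genes (TMM), with a biological coefficient of variation of 0.507. DESeq2 1.42.0 gave alternative size factors only. Python 3.11.15, numpy 2.4.6, pandas 2.3.3 and scipy 1.17.1 did the rest. Exon lengths, overlaps and shared 50-base runs came from GENCODE M21 (GRCm38), matched for 23621 symbols, and no coordinate was carried between builds. The tests were checked on simulated data. For the binomial test these held counting error only. That check therefore cannot show how often unchanged genes are called at the spread between these libraries. For the pair intervals the simulated data held the trended dispersion itself, so the size of that dispersion was not checked. All 37 members are named, and from each other list the 4 highest in CPM, of which 1 is not reported here. The members and lists were chosen with earlier results of these data known, and the pair of heat shock units was searched after the run of 3 units matched no member.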

Additional observations from a re-analysis of the deposited data

How the results depend on the processing

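The depth limits every value below about 1 CPM, where a few reads decide the level. The count of 25 detected genes was 14 at a CPM of at least 5, and 27 to 30 with 1 library left out. The median log2 level of all 37 genes, 2.18 with both libraries, was 2.18 to 2.77 with 1 library left out, and it was 0.47 to 1.42 for activity-linked, 2.48 to 3.25 for dissociation-linked and 5.54 to 5.97 for heat shock genes. The 13 genes that differed between the libraries became 7 of the 32 tested at a 4-fold threshold, beside 22.4% of all genes tested. Of these 7 genes, 5 were higher in B. TMM scaling and DESeq2's size factors each gave 5 higher in A and 6 higher in B. The 8 separated pairs were 6 to 7 with 1 library left out, which widens the intervals by construction. Of 60 pair values under alternatives 52 kept their direction and call, 5 lost the call and 2 gained it, and Hsp90ab1 over Hsp90aa1, never separated, had a log2 ratio of -0.18 with both libraries, 0.017 without library A and -0.45 without library B. No paired analysis between groups was possible because the series has only 1 group. The intervals of the gene pairs did not use the pairing of genes within a library.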
